A study of Rattus norvegicus with 12 samples.

Results

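Heme oxygenase and the oxidative stress genes controlled by NRF2 were followed across the mammary glands of 12 ovariectomized female Lewis rats. The 10 genes were Hmox1, Akr1b8, Mt1, Txnrd1, Srxn1, Gclc, Gclm, Slc7a11, Nfe2l2 and Keap1, of 14506 genes with a probe set of their own on the array. Each gene was read from the probe set that carried its symbol alone, and where a gene had several, the one with the highest mean intensity was chosen from the measured values. The genes themselves were chosen by their role, with earlier results of the same arrays known, so the values below describe these 12 rats and the p-values of the fit are no independent evidence. Mt1 was the only gene with a choice to make: the probe set kept (10796411) averaged 1379.5 over the 12 arrays and the other (10809392) averaged 1084.

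All 12 rats had been ovariectomized at about 10 weeks of age and were treated from 14 days later, so the vehicle-treated rats lacked ovarian hormones too. Rats of the E2 + 3-MC group received both 17β-estradiol (E2) at 4 µg/kg body weight per day and 3-methylcholanthrene (3-MC) at 15 mg/kg per day. The 3-MC and E2 groups received 1 of these agents at the same dose, and the vehicle group received DMSO in castor oil. There were 3 subcutaneous treatments at intervals of 24 h, the gland was removed 24 h after the last, and each group held 3 rats, with 1 array for each rat. 3-MC is a polycyclic hydrocarbon that activates the aryl hydrocarbon receptor (AHR). The array values were linear probe set intensities made by the authors, with medians of 85.7 to 109 over the arrays. RNA came from the whole gland: Adipoq, an adipocyte hormone, had intensities of 2765 to 4347 and Epcam, an epithelial surface protein, of 637 to 1373. In such bulk RNA, fewer cells of a type and less RNA per cell cannot be told apart.

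NRF2, the product of Nfe2l2, is a transcription factor that KEAP1 holds in the cytoplasm and marks for degradation. Electrophiles and oxidants modify KEAP1, NRF2 then enters the nucleus, and with small MAF proteins it binds antioxidant response elements (ARE) near genes for glutathione synthesis, thioredoxin recycling, quinone reduction and heme breakdown. The AHR acts through xenobiotic response elements (XRE), and several genes, among them Nqo1, are known to respond to both factors. Hmox1 is also held down by the heme sensor BACH1 and is abundant in macrophages that take up heme.

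The promoter windows of 4 of the genes are shown because the genes differ in the elements that they hold and in how widely they varied between the rats. RefSeq windows (build GRCr8) reaching from 250 bases before to 50 bases after the start site were at hand for 9 of the 10 genes, all but Hmox1. The letters searched on both strands were TGACNNNGC for the ARE, GCGTG for the core of the XRE, and TGCACNC or TGCGCNC for the metal response element (MRE) that the factor MTF1 binds. Of all 33469 windows of this length, 12.1% held the ARE letters, 29.7% the XRE core and 24.2% the MRE letters. Capitals mark MRE matches in Mt1 and ARE matches in the other windows; the windows lie at chr4:63964171-63964470 (Akr1b8, plus strand), chr19:10832926-10833225 (Mt1, minus strand), chr2:213031885-213032184 (Gclm, plus strand) and chr7:22755855-22756154 (Txnrd1, minus strand).
Akr1b8: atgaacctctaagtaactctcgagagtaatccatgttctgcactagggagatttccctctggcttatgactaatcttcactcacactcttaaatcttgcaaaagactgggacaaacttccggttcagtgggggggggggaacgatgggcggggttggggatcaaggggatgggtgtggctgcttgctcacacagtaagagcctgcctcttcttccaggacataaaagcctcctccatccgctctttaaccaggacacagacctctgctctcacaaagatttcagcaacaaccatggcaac
Mt1: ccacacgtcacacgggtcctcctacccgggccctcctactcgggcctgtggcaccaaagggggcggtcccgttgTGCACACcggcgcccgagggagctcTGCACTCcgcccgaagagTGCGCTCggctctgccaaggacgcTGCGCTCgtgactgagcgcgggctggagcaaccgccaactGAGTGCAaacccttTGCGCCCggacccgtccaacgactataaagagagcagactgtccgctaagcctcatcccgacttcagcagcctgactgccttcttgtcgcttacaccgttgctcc
Gclm: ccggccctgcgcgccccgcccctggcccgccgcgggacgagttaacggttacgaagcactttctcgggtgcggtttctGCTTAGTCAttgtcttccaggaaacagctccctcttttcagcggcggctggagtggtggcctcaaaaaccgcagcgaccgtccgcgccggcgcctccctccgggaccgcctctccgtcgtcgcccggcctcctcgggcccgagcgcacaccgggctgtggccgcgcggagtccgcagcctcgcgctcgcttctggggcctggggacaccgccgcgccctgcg
Txnrd1: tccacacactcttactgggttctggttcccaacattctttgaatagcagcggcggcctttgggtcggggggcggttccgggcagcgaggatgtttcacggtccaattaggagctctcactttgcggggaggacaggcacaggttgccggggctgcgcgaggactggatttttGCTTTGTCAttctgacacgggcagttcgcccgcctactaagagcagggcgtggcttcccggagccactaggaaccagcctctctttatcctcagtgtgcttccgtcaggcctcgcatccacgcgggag
The Akr1b8 window held none of the 3 motifs. The Mt1 window held 6 MRE matches and, 101 bases before the start, 1 ARE match (TGACTGAGC). Gclm had 1 ARE match (TGACTAAGC on the minus strand) and 2 MRE matches. The Txnrd1 window shown had 1 ARE match (TGACAAAGC) and 2 XRE cores, and a second Txnrd1 start had none of the motifs. Nfe2l2 had 1 ARE match past its start. XRE cores without an ARE were found in Gclc (1), Srxn1 (2) and Keap1 (3, of which 1 overlapped an MRE match), and the Slc7a11 window held none of the motifs. A match is only a description of the letters and was not tested as a site.

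Hmox1, Akr1b8 and Mt1 had higher intensities in each of the 3 E2 + 3-MC-treated rats than in any of the 3 E2-treated rats, as did 12% of all tested probe sets. The groups overlapped in every comparison for the other members. Of the 9 members that passed the filter on low intensities, 0 passed the test (an adjusted p under 0.05 and at least a 1.5-fold difference, limma with Benjamini-Hochberg adjustment over all 23371 tested probe sets) in any comparison. Fold changes are given on the log2(intensity + 16) scale, which understates the change of dim genes. By the group means on this scale, Hmox1 was 5.79-fold and Akr1b8 3.77-fold higher with E2 + 3-MC than with E2.

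**Figure D1:**
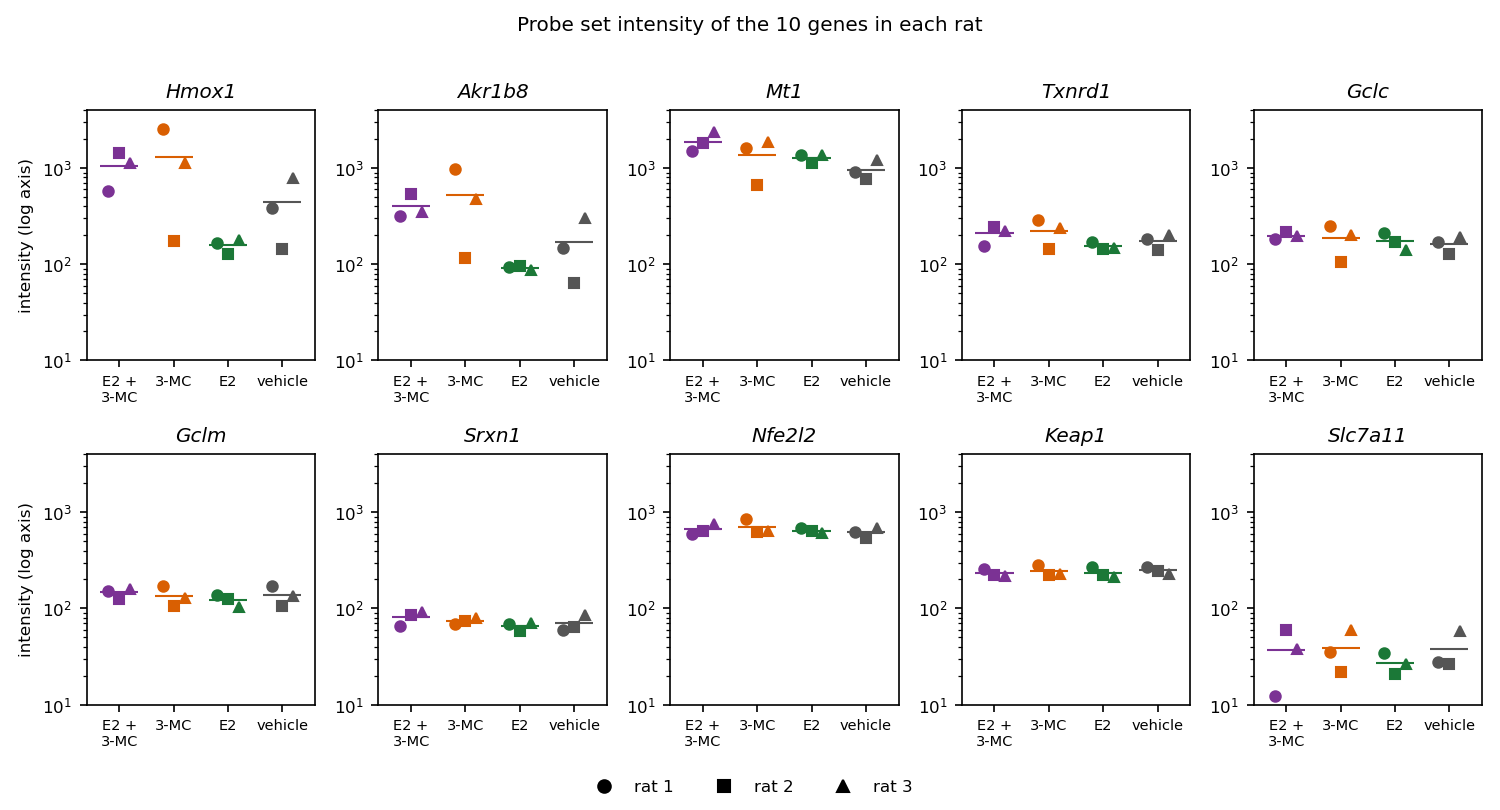
Probe set intensity (log axis) of each of the 10 genes in the 12 rats, by group; circles, squares and triangles are rats 1, 2 and 3 and lines are group means (n = 3). Hmox1 and Akr1b8 spread over 20.2-fold and 15.2-fold between the highest and lowest rat, Keap1 over 1.32-fold.

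Hmox1 (probe set 10806122) encodes heme oxygenase 1, the inducible enzyme that breaks heme down to biliverdin, iron and carbon monoxide. Its intensities were 578, 1444 and 1127 in E2 + 3-MC-treated rats 1, 2 and 3. They were 2583, 174 and 1119.5 in 3-MC-treated rats, 165, 128 and 180.2 in E2-treated rats, and 382, 144 and 799 in vehicle-treated rats. Every co-treated rat lay above every E2-treated rat, while the vehicle-treated rats spread from E2-like to co-treated levels and 3-MC rat 2 lay among the E2-treated rats. The group means were 1049.7 ± 438 with E2 + 3-MC, 1292 ± 1214 with 3-MC, 158 ± 27.0 with E2 and 441 ± 332 with vehicle (SD, n = 3 each). The within-group SD of the log2 values over the 4 groups, 1.19, was larger than that of 99.7% of tested probe sets, for which the median was 0.193. It was 0.67 with E2 + 3-MC, 1.93 with 3-MC, 0.23 with E2 and 1.18 with vehicle, so the spread was widest in the groups not given E2.

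Akr1b8 (probe set 10854406) encodes an aldo-keto reductase that reduces reactive aldehydes and carbonyls. The E2 + 3-MC-treated rats had intensities of 316, 541 and 349.7 and the 3-MC-treated rats 979, 116 and 475. The E2-treated rats had 93.2, 95.6 and 87.7 and the vehicle-treated rats 148, 64.2 and 301. The co-treated rats stood above all E2-treated and all vehicle-treated rats, and the E2-treated rats were nearly equal to each other (92.2 ± 4.08, SD, n = 3). As for Hmox1, 3-MC rat 1 was the highest of the 12, and 3-MC rat 2 lay within the range of the vehicle-treated rats.

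Mt1 (probe set 10796411) encodes metallothionein 1, a small protein that binds zinc and cadmium. Its intensities were 1496, 1826 and 2357 with E2 + 3-MC, 1627, 661 and 1862 with 3-MC, 1367, 1119 and 1362 with E2, and 905, 765 and 1206 with vehicle. The co-treated rats lay above all E2-treated and vehicle-treated rats, and 3-MC rat 2 was the lowest of the 12. Near-identical copies of metallothionein may share hybridization between probe sets. The other Mt1 probe set followed the first over the 12 arrays (r = 0.998) and gave a log2 difference of 1.02 between E2 + 3-MC and vehicle, against 0.97 for the first.

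Thioredoxin reductase 1, which returns thioredoxin to its reduced form, is encoded by Txnrd1 (probe set 10901413). Txnrd1 had intensities of 156, 247 and 224 with E2 + 3-MC, 289.5, 143 and 241 with 3-MC, 170.1, 146 and 147 with E2, and 183, 139.7 and 201 with vehicle. The groups overlapped in every comparison, although the order of the rats resembled that of Hmox1. Srxn1 (probe set 10840791) encodes sulfiredoxin, which repairs overoxidized peroxiredoxins, and ranged only from 58.1 to 90.9 over the 12 rats, with group means of 80.4 ± 13.3 with E2 + 3-MC, 73.5 ± 5.41 with 3-MC, 65.8 ± 6.67 with E2 and 69.9 ± 14.03 with vehicle (SD, n = 3 each).

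Gclc and Gclm encode the catalytic and the modifier subunit of glutamate-cysteine ligase, the enzyme that limits the rate of glutathione synthesis. Gclc (probe set 10911747) averaged 199 ± 16.9 with E2 + 3-MC, 187 ± 74.3 with 3-MC, 173 ± 35.5 with E2 and 162 ± 32.6 with vehicle (SD, n = 3 each). Gclm (probe set 10818793) averaged 147 ± 17.9 with E2 + 3-MC, 136 ± 33.7 with 3-MC, 122 ± 17.1 with E2 and 137 ± 31.98 with vehicle (SD, n = 3 each). Neither subunit had groups that stood apart, and the 3-MC-treated rats alone spread over 107 to 253 for Gclc and 107 to 173 for Gclm. Slc7a11 (probe set 10823057), the cystine importer that feeds this pathway, was the member that did not pass the filter. Its intensities were 12.4, 59.6 and 38.2 with E2 + 3-MC, 34.9, 21.5 and 58.9 with 3-MC, 34.1, 20.8 and 26.2 with E2, and 27.7, 26.3 and 58.2 with vehicle. These dim values overlapped throughout.

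The transcripts of the regulators themselves varied little. Nfe2l2 (probe set 10846286) averaged 662 ± 84.3 with E2 + 3-MC, 703 ± 126 with 3-MC, 643 ± 37.8 with E2 and 621 ± 76.6 with vehicle. Keap1 (probe set 10915549) averaged 231 ± 20.2 with E2 + 3-MC, 243 ± 33.1 with 3-MC, 235 ± 30.6 with E2 and 248 ± 21.8 with vehicle (SD, n = 3 each). Between the highest and the lowest rat, Nfe2l2 differed 1.57-fold and Keap1 1.32-fold, below the median of 1.71-fold over all tested probe sets. The array reads transcripts only, and control of NRF2 by degradation would not be seen in Nfe2l2 or Keap1 RNA.

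Whether 3-MC altered these genes in the presence of E2 was addressed by E2 + 3-MC against E2. On the log2(intensity + 16) scale Hmox1 differed by 2.53 (SE 0.75, 95% interval 0.91 to 4.15), with an unadjusted p of 0.00487 and an adjusted p of 0.424 in limma. Akr1b8 differed by 1.91 (SE 0.58, 95% interval 0.66 to 3.17, adjusted p 0.425, limma). Mt1 differed by 0.54 (SE 0.31) and Txnrd1 by 0.38 (SE 0.23), with limma adjusted p-values of 0.653 and 0.662. The log2 differences of Gclm (0.24), Srxn1 (0.23), Gclc (0.20), Nfe2l2 (0.04) and Keap1 (−0.02) all had 95% intervals that held 0, the outermost bounds being −0.33 and 0.73. The dim Slc7a11 differed by 0.19 where no filter was set (limma adjusted p 0.898). Of the 9 tested members, 0 passed and 2 (Hmox1 and Akr1b8) had an unadjusted p under 0.05. Of all tested probe sets, 0% passed and 8.77% had such a p. Hmox1, Akr1b8 and Mt1 had groups that did not overlap, higher in the co-treated rats, as did 12% of all tested probe sets.

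The call on Hmox1 and Akr1b8 in this comparison depended on which arrays set the error. In a fit of the 6 E2 + 3-MC and E2 arrays alone, limma gave Hmox1 a SE of 0.26 and an adjusted p of 0.00144 and Akr1b8 a SE of 0.18 and an adjusted p of 0.00113, so 2 of 9 members passed, beside 1.54% of all tested probe sets. The methods' t-test of the same 6 arrays with Benjamini-Hochberg adjustment gave an adjusted p of 0.436 for both genes, and an exact permutation test of 3 rats against 3 cannot go below 0.1. The fit of 12 arrays takes in the wide 3-MC and vehicle groups and the fit of 6 arrays does not. For Akr1b8 the SD of the log2 values was 0.40 with E2 + 3-MC, 1.48 with 3-MC, 0.05 with E2 and 0.99 with vehicle, and those of Hmox1 were given above. Which of these errors holds for the co-treated and E2-treated glands was not tested.

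**Figure D2:**
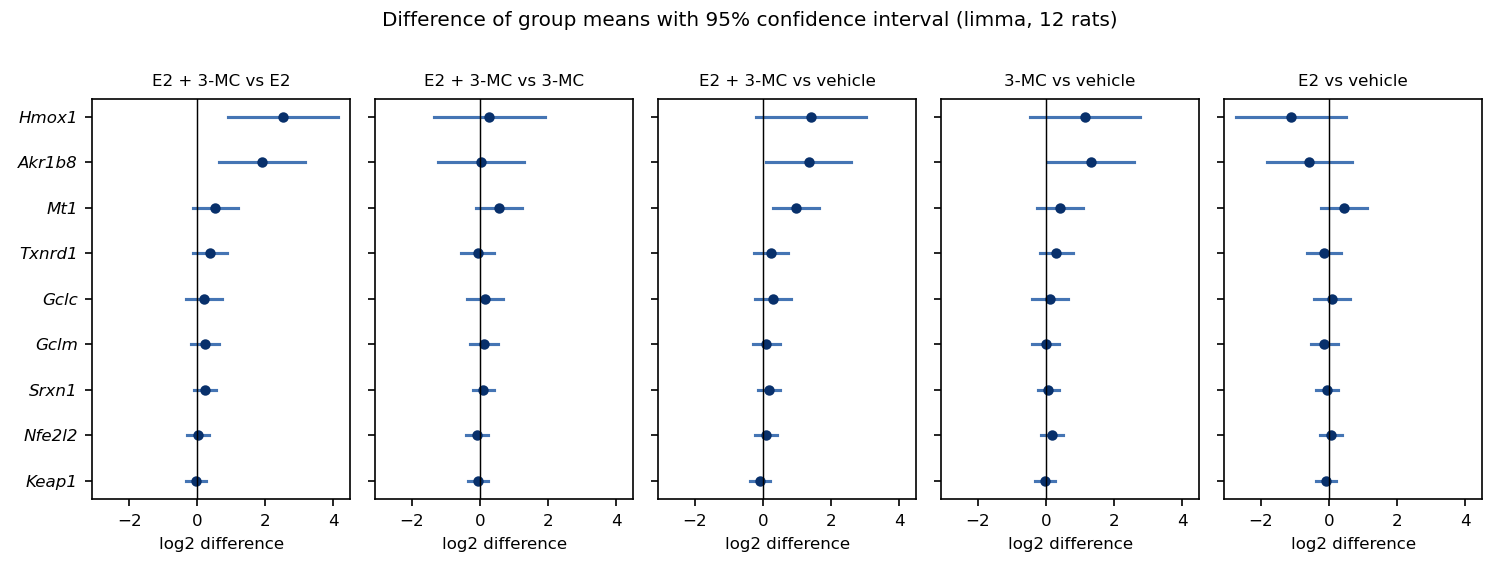
Log2 differences of group means (points) with 95% confidence intervals (lines) for the 9 tested members in 5 comparisons, from limma on 12 rats. Only Hmox1 and Akr1b8 in E2 + 3-MC against E2, Akr1b8 and Mt1 in E2 + 3-MC against vehicle and Akr1b8 in 3-MC against vehicle had intervals that left out 0 before adjustment.

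Against vehicle, co-treatment gave log2 differences of 1.42 for Hmox1 (SE 0.75, limma adjusted p 0.558), 1.34 for Akr1b8 (SE 0.58, adjusted p 0.490) and 0.97 for Mt1 (SE 0.31, adjusted p 0.389). Of the 9 members, 0 passed, where 0.163% of all tested probe sets passed. An unadjusted p under 0.05 was found for 2 members (Akr1b8 and Mt1) and for 9.72% of all tested probe sets. The co-treated rats lay above all vehicle-treated rats for the same 2 members and for 10.5% of all tested probe sets. The remaining 6 tested members lay between −0.10 and 0.28. Without vehicle rat 2 the differences were 0.81 for Hmox1 and 0.84 for Akr1b8, and without vehicle rat 3 they were 1.98 and 1.83.

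3-MC without E2 gave no such separation. The log2 differences from vehicle were 1.15 for Hmox1 (SE 0.75), 1.32 for Akr1b8 (SE 0.58) and 0.42 for Mt1 (SE 0.31), each with a limma adjusted p of 0.920, and the groups overlapped for every member. Of the 9 members 0 passed, as did 0% of all probe sets, and only Akr1b8 had an unadjusted p under 0.05 without pairing, beside 4.24% of all tested probe sets. Without 3-MC rat 2, the differences were 2.20 for Hmox1, 2.12 for Akr1b8 and 0.87 for Mt1, with limma adjusted p-values of 0.478. Without 3-MC rat 1, they were 0.32 for Hmox1 and 0.66 for Akr1b8, and Mt1 had 0.14 without 3-MC rat 3. Same-numbered 3-MC-treated and vehicle-treated rats deviated together, although the numbers are not stated to mark pairs. Skeletal muscle markers followed the numbers too. Their median log2 distance from the vehicle means was 1.82, 2.13 and −3.89 in vehicle rats 1, 2 and 3 and 1.08, 1.70 and −3.78 in 3-MC rats. For each number Hmox1, Akr1b8 and Txnrd1 were higher with 3-MC, with Txnrd1 at 143 against 139.7 for number 2. The other tested members were not: Mt1, Gclc and Keap1 were lower with 3-MC for number 2, and Gclm, Srxn1 and Nfe2l2 for number 3. How many of all probe sets were higher with 3-MC for each number was not counted. With a block on these numbers in the 6 arrays, limma gave unadjusted p-values of 0.0295 for Hmox1 and 0.00688 for Akr1b8. These rest on a matching taken from the same arrays, and the share of all probe sets with a p under 0.05 was not counted. The limma adjusted p-values were 0.543 and 0.525, and 0 members and 0 of all tested probe sets passed.

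E2 alone gave a log2 difference from vehicle of −1.11 for Hmox1 (SE 0.75, limma adjusted p 0.654), −0.57 for Akr1b8 (SE 0.58, adjusted p 0.799) and 0.43 for Mt1 (SE 0.31, adjusted p 0.680). None of these is larger than the spread between rats: 0 of 9 members passed and 0 had an unadjusted p under 0.05, beside 1.58% and 11.7% of all tested probe sets. Without vehicle rat 3 the differences were −0.55 for Hmox1 and −0.09 for Akr1b8, and without vehicle rat 2 −1.72 and −1.08. Mt1 had 0.29 without vehicle rat 2. Vehicle rat 2, at 144, had Hmox1 within the range of the E2-treated rats. The comparisons share groups: E2 + 3-MC against E2 and E2 against vehicle share the E2-treated rats, and 3 comparisons share the vehicle-treated rats.

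The remaining comparisons asked how E2 acted in rats given 3-MC and, by the interaction, whether E2 altered the response to 3-MC. Between E2 + 3-MC and 3-MC, Hmox1 differed by 0.27 (SE 0.75), Akr1b8 by 0.02 (SE 0.58) and Mt1 by 0.55 (SE 0.31). Without 3-MC rat 2 the values were −0.78 for Hmox1 and −0.78 for Akr1b8, and without E2 + 3-MC rat 2 Akr1b8 had −0.20, so their direction rested on single rats. Mt1 had 0.095 without 3-MC rat 2. Here 0 members passed and 0 had an unadjusted p under 0.05, beside 0.111% and 5.03% of all tested probe sets. The interaction of E2 and 3-MC, the difference between the 3-MC effect with and without E2, was 1.39 for Hmox1 (SE 1.06, limma adjusted p 0.982), 0.60 for Akr1b8 (SE 0.83) and 0.12 for Mt1 (SE 0.44). The Hmox1 interaction was 0.33 without 3-MC rat 2 and 2.22 without 3-MC rat 1. No member passed and none had an unadjusted p under 0.05 for the interaction, and 0% and 4.42% of all tested probe sets did.

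Averaged over both E2 states, a contrast chosen after seeing the data, 3-MC gave log2 differences of 1.84 for Hmox1 (SE 0.53, limma adjusted p 0.419), 1.61 for Akr1b8 (SE 0.41, adjusted p 0.419) and 0.48 for Mt1 (SE 0.22, adjusted p 0.527). Of the 9 members 0 passed, beside 0% of all tested probe sets, and these 3 had an unadjusted p under 0.05, beside 9.47%. No member separated the 6 rats given 3-MC from the 6 not given it, which 0.274% of all tested probe sets did in the higher direction. Without 3-MC rat 2, Akr1b8 passed (2.02, adjusted p 0.0496, limma) and Hmox1 had 2.37 with an adjusted p of 0.0545. In that fit 8 of all tested probe sets passed. These were the lowest adjusted p-values with each rat left out in turn, and the highest was 0.768 for each of the 2 genes (limma).

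The other genes of the NRF2 and stress pathways were taken from lists of 101 measured genes. For E2 + 3-MC against E2, 0 of these genes passed in the fit of 12 arrays. As for Hmox1 and Akr1b8, this depended on the arrays that set the error. In the fit of the 6 arrays, 6 of 99 tested genes passed higher with E2 + 3-MC and 0 passed lower. Of all tested probe sets, 1.54% passed there in either direction. The 6 genes were Cbr1, Cbr3, Mt2A and Glrx, with Cyp1b1 and Ahrr from the list of AHR targets (adjusted p 0.00899 to 0.0427, limma). In the list of quinone and carbonyl detoxification, 0 of 15 tested genes passed and the median log2 difference was 0.11, beside 0.05 over all tested probe sets; the leading genes were Nqo1, the quinone reductase, at 1.35 (SE 0.51) and Cbr1, a carbonyl reductase, at 1.03 (SE 0.23, unadjusted p 0.00066, limma adjusted p 0.329). Nqo1 had intensities of 87.1, 346 and 215 in E2 + 3-MC-treated rats and 64.8, 65.1 and 63.1 in E2-treated rats. Cbr1 had 1198, 1302 and 1464 in E2 + 3-MC-treated rats and 537, 628 and 759 in E2-treated rats. For both genes these 2 groups did not overlap. Vehicle-treated rats had Cbr1 at 1544, 823 and 1128, and 3-MC-treated rats at 972, 1514 and 1688. The log2 difference of Cbr1 from vehicle was −0.81 with E2, 0.22 with E2 + 3-MC and 0.26 with 3-MC. For Nqo1 it was −0.63, 0.73 and 0.71.

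Among the tested genes of the other lists, 0 of 8 metallothionein and metal transport genes passed, and Mt2A, the second metallothionein, had the largest difference at 1.07 (SE 0.49), with 2459, 4295 and 4188 in E2 + 3-MC-treated rats and 1812, 1436 and 1803 in E2-treated rats. Of 12 thioredoxin and peroxiredoxin genes 0 passed, and Glrx, a glutaredoxin, differed by 0.93 (SE 0.45). Of 4 superoxide and hydrogen peroxide genes 0 passed, and Sod2, the mitochondrial superoxide dismutase, differed by 1.04 (SE 0.34). Of 12 heme and iron genes 0 passed. Ftl1, the ferritin light chain that stores the iron freed from heme, had 5044, 5527 and 5776 in E2 + 3-MC-treated rats and 4010.3, 3476 and 3794 in E2-treated rats, a log2 difference of 0.53 (SE 0.14). Vehicle-treated rats had Ftl1 at 4737, 4230 and 5130. Its log2 difference from vehicle was −0.32 with E2 and 0.22 with E2 + 3-MC. Hmox2, the constitutive heme oxygenase, named after its value was seen, differed by −0.09 (SE 0.14). The list medians were 0.11 for metallothionein and metal transport, 0.11 for thioredoxin and peroxiredoxin, 0.20 for superoxide and hydrogen peroxide and 0.19 for heme and iron.

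In the remaining lists, 0 of 14 glutathione genes, 0 of 4 genes of NADPH supply, 0 of 12 NRF2 regulators, 0 of 9 genes of amino acid stress and 0 of 6 heat shock genes passed for E2 + 3-MC against E2. Gpx2, a glutathione peroxidase of epithelia, had the largest difference in the glutathione list and it was negative, at −0.84 (SE 0.23, limma adjusted p 0.397). In the same comparison 6 of 10 luminal epithelium markers had an unadjusted p under 0.05 and lower values (median −0.44, 0 passed). Of 5 tested basal epithelium markers 2 did (median −0.32, 0 passed), and the basal keratins Krt14 and Krt17 had −1.10 and −0.97. Of all tested probe sets, 8.77% had such a p in either direction. The median log2 distance of the basal markers from their vehicle means overlapped between the groups. It was 0.07, −0.25 and 0.27 in E2 + 3-MC-treated rats and 0.14, −0.03 and 0.09 in E2-treated rats. The part of these cells in the Gpx2 value was not tested. Bach1, the repressor of Hmox1, differed by 0.19 (SE 0.25), and Maff, a small MAF partner of NRF2, by 0.36 (SE 0.17). With each rat left out, Bach1 ran from 0.024 (without E2 + 3-MC rat 2) to 0.48 (without E2 + 3-MC rat 1) and Maff from 0.18 (without E2 rat 1) to 0.57 (without E2 rat 2). The log2 differences of the other leading genes were 0.56 for Gpx1 and for Me1, 0.53 for Prdx5, 0.42 for Slc30a10, 0.41 for Atf3, 0.36 for Tkt and Slc48a1, 0.29 for Sod3, 0.28 for Ppp1r15a, 0.14 for Hspb1 and −0.16 for Hspd1. Against vehicle, 0 of the listed genes passed with E2 + 3-MC or with 3-MC.

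With E2 alone, 3 listed genes passed the test against vehicle. Gpx2 rose, with 293, 275 and 159 in E2-treated rats and 68.9, 60.9 and 92.3 in vehicle-treated rats, a log2 difference of 1.49 (SE 0.23, limma adjusted p 0.00599). Ggt1, a glutathione hydrolase, rose by 0.68 (SE 0.14, adjusted p 0.0323, limma), and Me1, the malic enzyme that supplies NADPH, fell by 1.06 (SE 0.23, adjusted p 0.0364, limma). These made 2 of 14 glutathione genes higher and 1 of 4 NADPH genes lower. Of all tested probe sets, 1.58% passed in this comparison in either direction and 11.7% had an unadjusted p under 0.05 (limma). Ggt1 did not pass without vehicle rat 1, 2 or 3 or E2 rat 1 or 2 (adjusted p 0.0751 to 0.176, limma), and Me1 did not pass without vehicle rat 1 or 3, any one E2-treated rat or any one E2 + 3-MC-treated rat (0.0536 to 0.166). Of 10 luminal epithelium markers 5 passed, all higher with E2, and the median log2 difference was 0.73. Of 9 white adipocyte markers 2 passed, both lower with E2 (Retn and Lpl), 6 had an unadjusted p under 0.05 and lower values, and the median was −0.34. The part of these cells in the Gpx2, Ggt1 and Me1 values was not tested. Of the genes that did not pass, Slc48a1, a heme transporter (−0.60, limma adjusted p 0.0559), passed under 6 alternatives and Sod3, the extracellular superoxide dismutase (−0.64, 0.0610), under 4. Tkt, a transketolase (−0.59, 0.175), passed under 2 and Cbr1 (−0.81, 0.125) under 1. All of these were lower with E2.

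**Figure D3:**
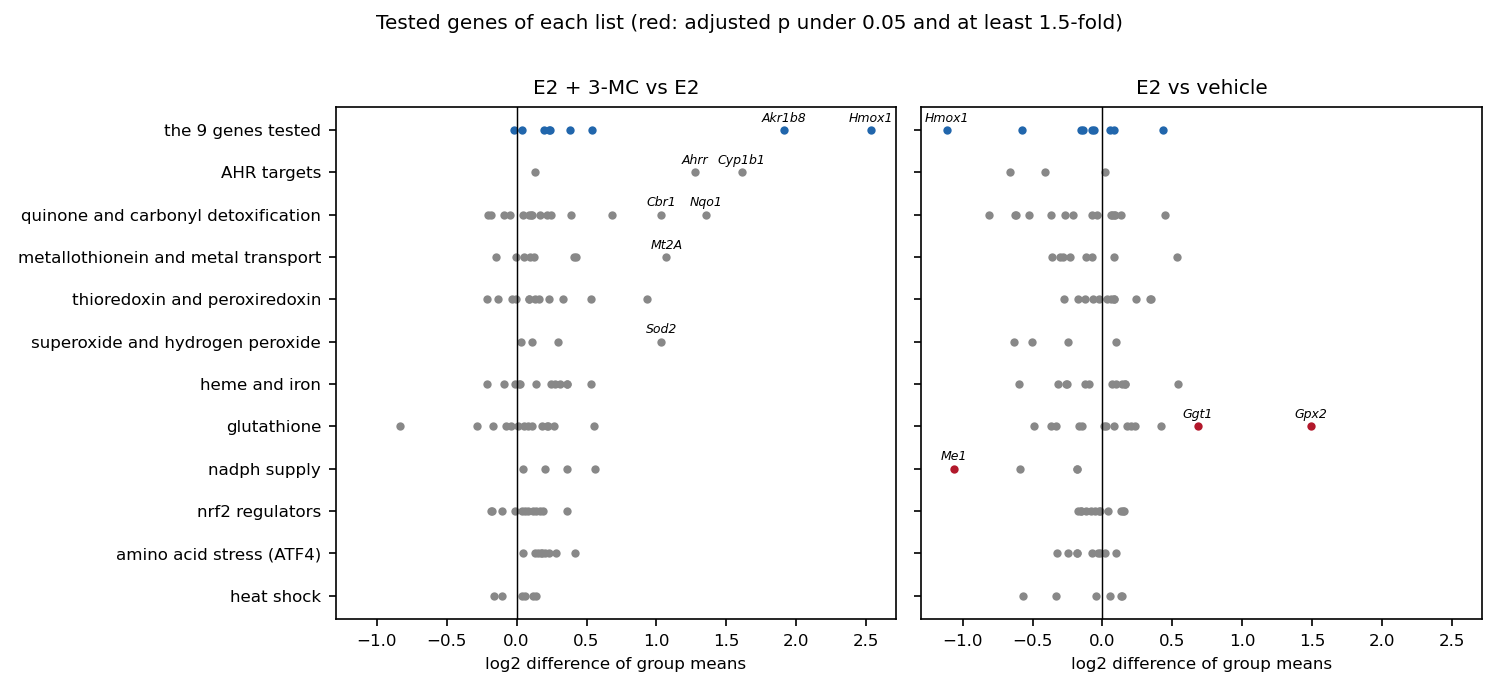
Log2 differences of the tested genes of each list for E2 + 3-MC against E2 and for E2 against vehicle; blue points are members, red points passed (adjusted p under 0.05 and at least 1.5-fold). Gpx2, Ggt1 and Me1 passed with E2, and no listed gene passed with co-treatment against E2, where Hmox1 at 2.53 and Akr1b8 at 1.91 lay farthest right.

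Known AHR targets served as a check on 3-MC, and 0 of the 3 tested passed in any comparison of the 12-array fit. In E2 + 3-MC against E2 the fit of 6 arrays gave Cyp1b1 (log2 difference 1.61) an adjusted p of 0.0305 and Ahrr, the AHR repressor (1.27), of 0.0391 (limma). In that fit 2 of 3 passed, beside 1.54% of all tested probe sets. Cyp1b1, an estrogen-hydroxylating enzyme, had intensities of 154, 560.2 and 407 in E2 + 3-MC-treated rats, 553, 101 and 588 in 3-MC-treated rats, 97.7, 88.3 and 107 in E2-treated rats and 161, 127 and 211 in vehicle-treated rats. 3-MC rat 2 thus lay within the range of the rats not given 3-MC for Cyp1b1, as it did for Nqo1 (72.8), Hmox1 and Akr1b8, and it lay below all of them for Mt1. E2 + 3-MC rat 1 had the lowest Cyp1b1 of its group and also the lowest Hmox1, Akr1b8 and Mt1. Ahrr had 51.0, 168 and 98.4 in E2 + 3-MC-treated rats and 25.5, 38.8 and 27.7 in E2-treated rats, which did not overlap. Cyp1a1, the most widely used AHR target, did not pass the filter and ranged from 10.2 to 111 over the 12 rats.

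The members did not vary alike between rats. Over the 12 arrays, the log2 values of Hmox1 correlated with those of Akr1b8 at r = 0.980, Txnrd1 at 0.938, Gclc at 0.745, Mt1 at 0.701, Nfe2l2 at 0.653, Gclm at 0.611, Srxn1 at 0.558 and Keap1 at 0.122. These correlations are descriptions over arrays that share tissue and treatment, and the median over 13138 tested probe sets with 1 symbol was 0.243. After the group means were taken out, Akr1b8 (0.977), Txnrd1 (0.950), Gclc (0.895) and Mt1 (0.879) still followed Hmox1 from rat to rat. Nfe2l2 (0.760), Gclm (0.578) and Srxn1 (0.344) had lower values, and Keap1 (0.220) did not follow it. The E2-treated rats were an exception for Akr1b8, whose order there was the reverse of that of Hmox1. A background over all probe sets was not computed for these values, and the part of array scale in them was not tested.

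**Figure D4:**
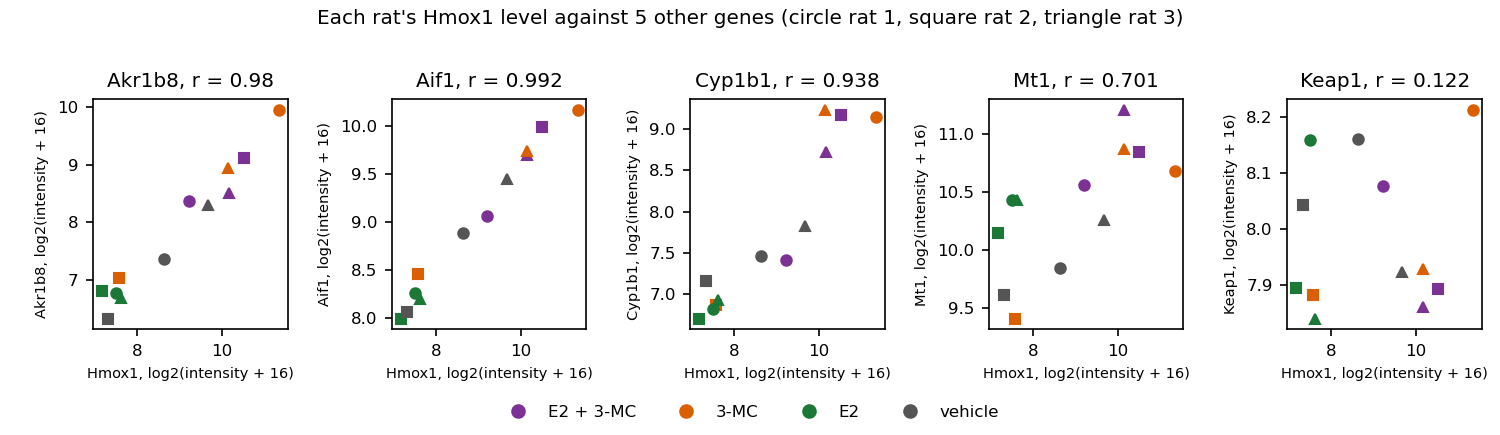
Log2(intensity + 16) of Hmox1 in each of the 12 rats (x) against Akr1b8, Aif1, Cyp1b1, Mt1 and Keap1 (y), coloured by group, with Pearson's r over the 12 arrays. Akr1b8 and Aif1 follow Hmox1 over the 12 arrays (r = 0.980 and 0.992), Keap1 does not (0.122). Among the E2-treated rats alone, the order of Akr1b8 was the reverse of that of Hmox1.

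Outside the members, the 3 genes with the pattern most like Hmox1 were Aif1 (r = 0.992), a macrophage calcium-binding protein, Ms4a6bl1 (0.983) and Hpse (0.982), the heparanase, with 1.44% of the probe sets above 0.9. Akr1b8 ranked next, the fourth of 13138. Aif1 had intensities of 519, 999 and 813 in E2 + 3-MC-treated rats, 1135, 334 and 836 in 3-MC-treated rats, 291, 238 and 277 in E2-treated rats and 456, 252 and 682 in vehicle-treated rats. The order of the rats was nearly that of Hmox1 (Spearman's rho 0.972).

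Most markers of macrophages, 8 of 10, moved with Hmox1 across the rats. All 10 of the 10 listed markers were measured and none was at 0; the dimmest was Marco (mean 37.4) and the brightest Cd14 (1448). Their summed intensity was 5191 to 7079 in E2 + 3-MC-treated rats, 4283 to 7534 in 3-MC-treated rats, 3854 to 4581 in E2-treated rats and 3299.9 to 6020.1 in vehicle-treated rats. The highest sums stood in the groups with the highest Hmox1 values. Over the 12 arrays the 10 markers had r = 0.154 to 0.947 with Hmox1 (median 0.858), with 8 above 0.8; Cd14 (0.154) and Marco (0.299) did not follow it. For E2 + 3-MC against E2, 0 of 10 macrophage markers passed, 6 had an unadjusted p under 0.05 and higher values, and their median log2 difference was 0.67, beside 2.53 for Hmox1. Among all tested probe sets, 8.77% had such a p in either direction. Only Cd14 passed in E2 against vehicle, at 0.84 and higher with E2, where Hmox1 had −1.11. Lymphocyte markers moved too, with Cd8a at 65.1, 216 and 151 in E2 + 3-MC-treated rats and 19.4, 28.2 and 28.3 in E2-treated rats. The part of these cells in the Hmox1 and Akr1b8 values was not tested.

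Skeletal muscle RNA also differed widely between the glands, with a summed intensity of 9 markers of 660 to 1938 in E2 + 3-MC-treated, 525 to 23461 in 3-MC-treated, 971 to 6300.4 in E2-treated and 500.3 to 31265 in vehicle-treated rats. With the level of this list as a covariate, chosen after seeing the data, the log2 difference between E2 + 3-MC and E2 was 2.27 for Hmox1 and 1.70 for Akr1b8, with limma adjusted p-values of 0.397 and 0.402.

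**Figure D5:**
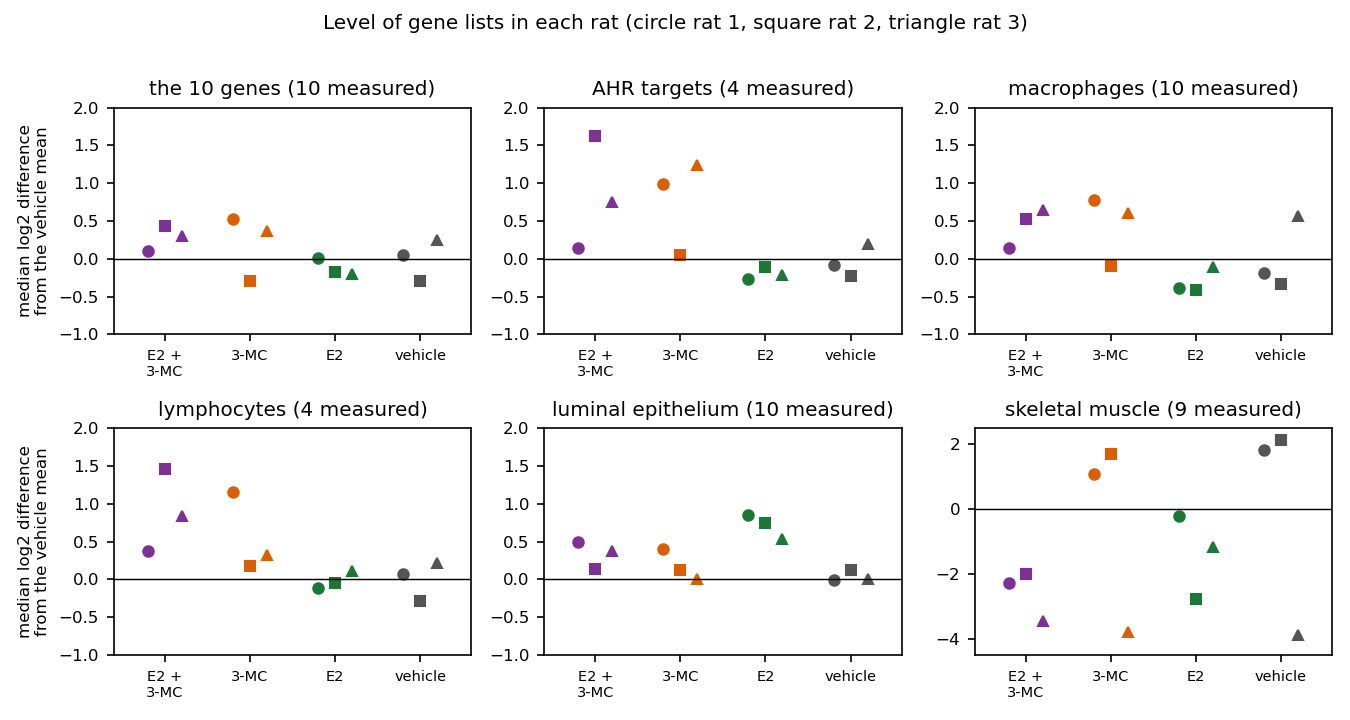
Level in each rat, as the median log2 distance of a list's genes from their vehicle means, for the 10 genes, AHR targets, macrophage, lymphocyte, luminal epithelium and skeletal muscle markers. 3-MC rat 2 (square) lies below rats 1 and 3 of its group for the 10 genes, AHR targets, macrophages and lymphocytes, and above them for skeletal muscle.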

How the data were processed

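Total RNA of whole mammary glands was hybridized to Affymetrix Rat Gene 1.0 ST arrays, 1 array for each of 12 rats. The authors summarized the probes with PLIER (the submitters' processing notes also name Expression Console), and the deposited values are linear probe set intensity values. The methods name quantile normalization and a shift to the control median, but the array columns neither share 1 distribution nor are centred on the vehicle arrays. The build behind the probe sets is not given in the sources used here. Of 29214 probe sets, 15310 had 1 gene symbol in the platform annotation, 323 several and 13581 none here.

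Log2(intensity + 16) was fitted with limma 3.58.1 in R 4.3.3, as 1 model of the 4 groups. The 23371 probe sets with a mean above the 20th percentile were tested, with Benjamini-Hochberg adjustment over all of them. A gene passed at an adjusted p under 0.05 and at least 1.5-fold. Plots were drawn with matplotlib. The fit was tested on simulated data in which each probe set had 1 spread shared by the 4 groups. That test cannot show how the fit behaves for Hmox1 and Akr1b8, whose spread differed between the groups. The number of arrays limits the precision, and with 3 rats in each group the smallest p of an exact permutation test (two-sided) is 0.1.

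The members, lists and tests were chosen with earlier results of these data known. Named were all members; from each list, the genes that passed (up to 4) and up to 2 others with the largest differences; Cyp1a1, Cyp1b1 and Nqo1 as a check of 3-MC; and the 3 genes most like Hmox1. The correlations of other genes with Hmox1, the tissue markers and Cbr3 were chosen after their values were seen. The alternatives were other pseudocounts, filters, scalings, thresholds, fits and blocks, and leaving out each rat. Nothing says that the rats of a group came from separate litters, and p-values measure the spread between these rats. Same-numbered rats are not stated to be paired. Their deviations from the group means correlated at 0.341, 0.442 and 0.564 between 3-MC and vehicle. The correlations were not all above 0.1 in the other comparisons. Rats were therefore compared number by number for 3-MC against vehicle alone. The block on these numbers was run as an alternative in every comparison, also where the correlations were not all above 0.1.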

Additional observations from a re-analysis of the deposited data

How the results depend on the processing

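Of 29 alternatives for each comparison of groups (26 for the interaction and for the average over both E2 states, to which the fits of 2 groups do not apply), the count of members that passed was 0 throughout for E2 against vehicle, 3-MC against vehicle, E2 + 3-MC against vehicle, E2 + 3-MC against 3-MC and the interaction. For E2 + 3-MC against E2 it was 2 with limma on the 2 groups compared and 2 with the replicate block on those 6 arrays, in which Hmox1 and Akr1b8 had an adjusted p of 1.49e-05 and 697 probe sets passed, beside 0 of all 23371 in the fit of 12 arrays. Same-numbered E2 + 3-MC-treated and E2-treated rats share only a number by their correlations (0.130, 0.0809 and 0.137). The replicate block changed no other call on members, 3-MC against vehicle included. For the average it was 0 to 1 when each rat was left out, 1 without 3-MC rat 2.

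Directions changed only for log2 differences of 0.60 or less in size, in 26 of 63 member results. For E2 + 3-MC against E2, Nfe2l2 was −0.024 with arrays centred on their medians and −0.060 to 0.11 with each rat left out. Keap1 was 0.022 with array weights, 0.015 with the skeletal muscle covariate (chosen after seeing the data) and −0.088 to 0.076 with each rat left out. Hspb1 was −0.10 to 0.35 with each rat left out. For E2 + 3-MC against 3-MC, Hmox1 was −0.22 with the muscle covariate and −0.78 to 1.10 with each rat left out; Akr1b8 was −0.017 with centred arrays, −0.10 with array weights, −0.37 with the muscle covariate and −0.78 to 0.68 with each rat left out. For the interaction, Akr1b8 was −0.20 to 1.25 and Mt1 −0.34 to 0.40 with each rat left out. The causes were not tested. For E2 + 3-MC against E2, the block on 6 arrays also gave Cbr1, Ahrr, Cyp1b1, Mt2A, Nqo1, Glrx, Sod2 and Gpx2 (lower) adjusted p-values of 0.000362 to 0.0142. Gpx2 with E2 did not pass with the block on 6 arrays (adjusted p 0.0509), with treat or with the methods' t-test. Of 29 alternatives, Ggt1 with E2 did not pass under 9 and Me1 under 12, which took in settings other than leaving out a rat. The number of arrays limits the precision.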
